A study of Mus musculus with 8 samples.

Results

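The genes described here encode the mouse respiratory chain and its ATP synthase. They were taken by name from the protein-coding rows of a table of read counts: the Ndufa, Ndufb, Ndufc, Ndufs and Ndufv genes of complex I, Sdha to Sdhd of complex II, the Uqcr genes of complex III, the Cox4 to Cox8 genes of complex IV, the Atp5 genes of complex V, and every gene whose name starts with mt-. The rule found 98 of 54532 genes, 85 of them in the nucleus and 13 in the mitochondrial genome. The nuclear members comprised 35 genes of complex I, 4 of complex II, 8 of complex III, 20 of complex IV and 18 of complex V. Ndufa4 and Ndufa4l2 carry complex I names but were counted with complex IV, where NDUFA4 is known to sit. Of the 98 members, 94 had enough reads to be tested, 81 nuclear and 13 mitochondrial.

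The respiratory chain passes electrons from NADH, through complexes I, III and IV, and from succinate, through complex II, to oxygen. Complexes I, III and IV pump protons across the inner mitochondrial membrane, and complex V, the ATP synthase, lets them flow back and makes ATP. Complex II is encoded wholly in the nucleus, while the other complexes join nuclear subunits with subunits that mitochondria make from their own genome. Maturation ameloblasts, the epithelial cells that harden enamel by moving ions and acid, are known to hold many mitochondria.

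RNA was sequenced from first molars of 4 Wdr72-/- libraries (KO 1, 3, 4 and 5) and 4 wild-type libraries (WT 2, 3, 4 and 5), all of strain C57BL/6 by their labels. The KO colony was bought from the UC Davis Mouse Biology Center. Pups were 12 days old after birth by the age label and 13 days by the protocol for dissection. Pulp was taken out, and what was left of each molar was homogenised whole, so tissue other than the labelled ameloblasts could enter the RNA. The labels do not say whether a library came from 1 pup or a pool, so a p-value reflects the spread among these 8 libraries alone, which may be technical. Libraries held 17084475 to 21887462 reads.

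Wdr72 itself had 102, 37.8, 24.9 and 15.8 CPM, reads scaled to the size of the library, in KO 1, 3, 4 and 5, against 173, 245, 327 and 227 CPM in WT 2, 3, 4 and 5. Each KO library lay below each WT library, with KO 1 nearest to WT. Its log2 fold change, KO over WT throughout, was -2.43 (SE 0.47), with an adjusted p of 0.080 by edgeR's quasi-likelihood test with Benjamini-Hochberg adjustment over all 16205 genes tested. DESeq2 gave 0.0056 for the same gene, limma voom gave 0.024, and edgeR without KO 1 gave a log2 fold change of -3.21 with an adjusted p of 0.012. The labels do not name the deleted part of the gene, so its reads test the genotype labels by level alone. KO 5 stood apart from the other libraries: its mean correlation with them was 0.965, against 0.980 to 0.983 for the rest.

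Enamel genes were abundant in both groups: the summed level of the 11 ameloblast markers lay at 59850 to 81301 CPM in KO and 53713 to 98156 CPM in WT. Marker genes of odontoblasts, the cells that make dentin, summed to 50976 to 83690 CPM in KO and 40736 to 79604 CPM in WT, so RNA of dentin-forming or bone-forming cells was present in every library. Skeletal muscle markers, of which 17 of 19 were tested, summed to 75.3 to 140 CPM in KO and 79.6 to 137 CPM in WT. In whole tissue, fewer cells of a type and less RNA per cell cannot be told apart.

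Before any level of a mitochondrial gene is read, its sequence has to be set against the nuclear genome, which carries old copies of mitochondrial DNA. On chromosome 1, chr1:24611535-24616197 (GRCm38, minus strand), the gene annotation lists a run of pseudogenes that match mitochondrial genes at 99.7% to 100% identity. mt-Co2, mt-Co3, mt-Atp6 and mt-Nd4l are 100% identical to Gm28661, Gm28437, Gm10925 and Gm10222 over at least 99% of their length, and mt-Nd3 is 99.7% identical to Gm28438. mt-Atp8, which lies between mt-Co2 and mt-Atp6, falls inside the same block. The stretches below show why reads of these genes cannot be placed with certainty: the opening 120 bases of mt-Atp6 (MT, 7927 to 8607) and Gm10925 do not differ, and those of mt-Nd3 (MT, 9459 to 9806) and Gm28438 differ at 1 base, T3C, counted from the first base of mt-Nd3 and marked by the capital. As a contrast, mt-Co1 (MT, 5328 to 6872) is set against Gm13340, an older copy on chromosome 2, with the 3 differing bases of the stretch (C54A, A60G and G87A) in capitals. The sequences are GENCODE M21 transcripts, 5′ to 3′.
mt-Atp6: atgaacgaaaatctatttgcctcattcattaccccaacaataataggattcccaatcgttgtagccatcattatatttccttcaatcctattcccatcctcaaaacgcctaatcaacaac
Gm10925: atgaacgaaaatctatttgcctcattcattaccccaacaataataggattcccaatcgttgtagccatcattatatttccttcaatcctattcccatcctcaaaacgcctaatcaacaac
mt-Nd3: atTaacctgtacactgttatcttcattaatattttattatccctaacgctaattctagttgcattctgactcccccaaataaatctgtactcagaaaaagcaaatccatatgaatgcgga
Gm28438: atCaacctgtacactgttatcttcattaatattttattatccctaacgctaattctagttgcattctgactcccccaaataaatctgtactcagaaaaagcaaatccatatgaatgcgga
mt-Co1: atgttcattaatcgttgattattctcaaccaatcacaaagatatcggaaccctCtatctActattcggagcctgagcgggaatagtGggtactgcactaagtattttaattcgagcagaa
Gm13340: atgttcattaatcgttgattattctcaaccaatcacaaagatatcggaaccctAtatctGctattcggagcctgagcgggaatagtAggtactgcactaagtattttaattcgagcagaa

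The 13 mitochondrial genes fell into 2 ranges of level along this line. The 7 genes without a near-identical copy over their whole length (mt-Nd1, mt-Nd2, mt-Nd4, mt-Nd5, mt-Nd6, mt-Cytb and mt-Co1) averaged 1574 to 6471 CPM per kb over the 8 libraries. The other 6 averaged 8.79 to 45 CPM per kb, although they are transcribed from the same circle of DNA. mt-Nd4 and mt-Co1 are partly copied, over 63.6% and 31.3% of their length, and kept high levels.
The pseudogenes took reads too, in amounts that differed between the copies. Gm28661 had 1.15, 1.25, 1.56 and 1.05 reads for each read of mt-Co2 in the KO libraries and 1.36, 1.28, 1.28 and 1.57 in the WT libraries. Gm10925 had 1.20, 1.5, 1.17 and 1.37 reads for each read of mt-Atp6 in KO and 1.71, 1.37, 1.57 and 1.55 in WT. Over the 8 libraries together, Gm28437 had 4089 reads and mt-Co3 5554, Gm10222 had 1423 and mt-Nd4l 807, and Gm28438 had 343 and mt-Nd3 1204. How the aligner treated reads with several best positions is not stated in the labels, and the low levels of these 6 genes are therefore uncertain as measures of their mRNAs.

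**Figure D1:**
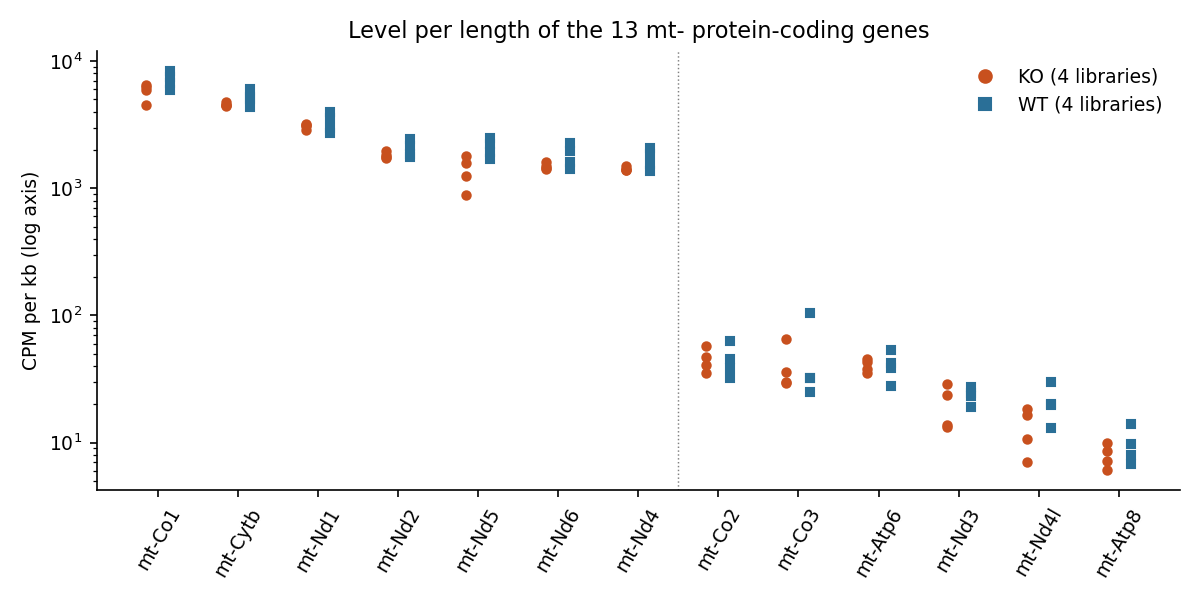
Level of each mitochondrial protein-coding gene, in CPM per kb of gene length on a log axis; circles are the 4 KO libraries and squares the 4 WT libraries. The 7 genes left of the dotted line average 1574 CPM per kb or more, and the 6 to its right, which have near-identical copies on chromosome 1 or lie within the copied block, average 45 CPM per kb or less.

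Of the 94 members tested, 0 changed between KO and WT by edgeR's quasi-likelihood test with Benjamini-Hochberg adjustment over all genes, where 5 of 16205 genes (0.0309%) did. The smallest adjusted p of a member was 0.25. DESeq2 and limma voom also called 0 members, though they called 464 and 1065 genes in all. By direction, edgeR called 0.0123% of all genes higher and 0.0185% lower in KO, DESeq2 1.83% higher and 1.04% lower, and limma voom 4.29% higher and 2.28% lower. Before adjustment, at a p under 0.05, 1 member was higher in KO (Uqcrc1), where 8.70% of all genes were, and 2 were lower (Ndufa4l2 and mt-Nd5), where 6.98% of all genes were. For 0 members did the 4 KO values lie wholly above the 4 WT values, against 5.50% of all genes, and for 0 members wholly below, against 5.44% of all genes. With 1 library left out, the count of members stayed at 0, while that of all genes was 0 without KO 3, KO 4, WT 2 or WT 3, 3 without KO 1, 15 without WT 4 and 55 without KO 5.

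The nuclear and mitochondrial members nevertheless lay on opposite sides of 0. The median log2 fold change was 0.20 over the 81 nuclear members, of which 77 were positive and 4 negative, and -0.27 over the 13 mitochondrial members, which were all negative with these 8 libraries. Over all genes tested the median was 0.021, with 53.1% positive. The direction of the nuclear members rested on KO 5: without it their median was -0.020, with 30 positive and 51 negative, and without KO 1 and KO 5 it was -0.11, while without KO 3 it was 0.31. Limma voom with sample quality weights, which give less weight to libraries that stand apart, put it at -0.0065. The weight that KO 5 received was not examined. The mitochondrial median was -0.23 without KO 5 and -0.10 without WT 4, and a correction of each library for gene GC content and length left it at 0.0054, with 7 of 13 genes positive. The same correction put the nuclear median at 0.12, with 68 positive and 13 negative. Deviations of a library from the mean of all 8 correlated with gene GC content at Spearman rho of -0.051 to 0.37 in KO and -0.42 to -0.16 in WT, without overlap. Median GC content was 37.1% over the mitochondrial members, 50.3% over the nuclear members and 49.7% over all genes. The GC trend and the genotype thus ran together in these 8 libraries, and their parts in the medians were not separated.

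**Figure D2:**
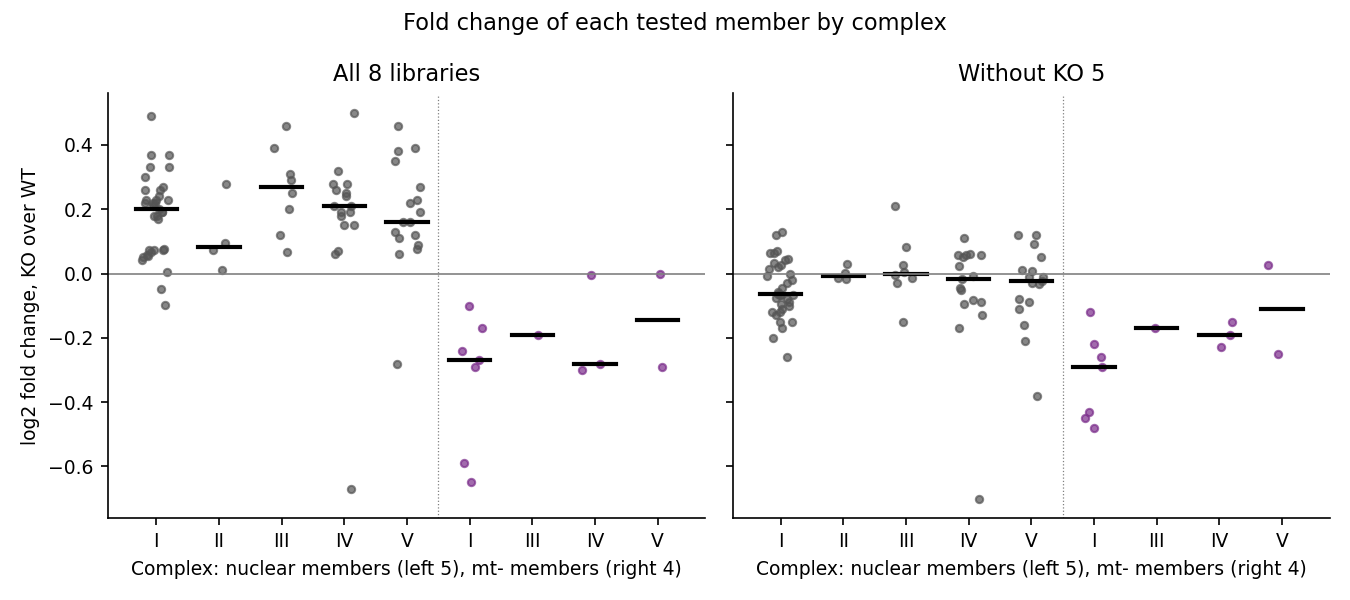
log2 fold change, KO over WT, of the 94 tested members by complex, with nuclear members in grey left of the dotted line and mitochondrial members in purple right of it; each point is 1 gene and each bar a median. With all 8 libraries the nuclear medians lie between 0.084 and 0.27, and without KO 5 between -0.064 and -0.00073, while the mitochondrial medians lie below 0 in both panels.

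As counted, the reads fell on the 2 genomes as follows. Nuclear members took 1.29%, 1.09%, 1.19% and 1.78% of the reads of KO 1, 3, 4 and 5, against 1.17%, 1.22%, 1.31% and 1.16% in WT 2, 3, 4 and 5. KO 5 was above every other library, KO 3 was below every other library, and KO 1 and KO 4 lay within the WT range. Mitochondrial protein-coding genes took 2.42%, 2.64%, 2.53% and 2.02% of the reads in the KO libraries, against 2.91%, 3.11%, 3.43% and 2.48% in the WT libraries. The KO mean was 2.40% ± 0.269 and the WT mean 2.98% ± 0.398 (SD, n = 4 each), a difference of -0.584 percentage points, and the groups overlapped because WT 5 fell among the KO libraries. Reads of mitochondrial members for each read of nuclear members numbered 1.87, 2.42, 2.13 and 1.13 in KO, against 2.49, 2.54, 2.61 and 2.15 in WT. KO 3 exceeded WT 5 in this ratio, so the groups overlapped here too.

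**Figure D3:**
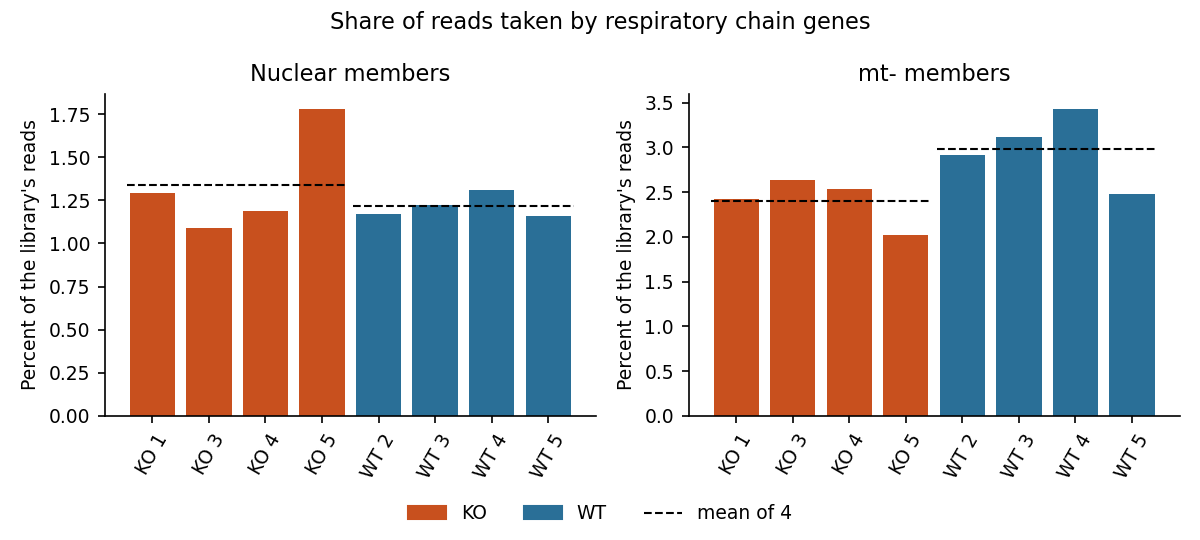
Percent of each library's reads that fell on the 85 nuclear members (left panel) and on the 13 mitochondrial members (right panel), with KO libraries left of WT libraries and dashed lines at the mean of each group of 4. KO 5 holds the highest nuclear share, 1.78%, and the lowest mitochondrial share, 2.02%, of the 8 libraries. Nearly all reads in the right panel come from the mitochondrial genes without a near-identical copy over their whole length.

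Library by library, the nuclear members varied together. KO 5 had the highest level of the 8 libraries for 76 of 81 nuclear members (93.8%), while over all genes tested it was highest for 31.7%. The 5 exceptions were Ndufs1 and Sdha, highest in WT 4, Ndufb2, highest in KO 1, Ndufa4l2, highest in WT 2, and Atp5s, highest in WT 3. KO 3 had the lowest level for 49 of the 81 (60.5%), against 10.9% of all genes. Relative to the WT mean, the median log2 level of the nuclear members was 0.16, -0.19, -0.026 and 0.74 in KO 1, 3, 4 and 5, and -0.088, 0.025, 0.16 and -0.085 in WT 2, 3, 4 and 5. The mitochondrial members ran differently: their median was -0.18, -0.15, -0.25 and -0.22 in the KO libraries and -0.12, 0.074, 0.30 and -0.27 in the WT libraries, and WT 4 was highest for 12 of 13 of them.
Set against the mean of the other KO libraries, KO 5 was higher for 79 of 81 nuclear members, with a median log2 difference of 0.78. Over all genes that median was 0.00027, and over the other 2863 tested genes shorter than 2000 bases it was 0.37. Across the 81 nuclear members the difference ran with gene length at a Spearman rho of -0.33 and with GC content at 0.30, and across all genes at -0.48 and 0.31; genes are not independent replicates, and these are descriptions of shared libraries. The 7 erythroid markers summed to 1501 to 4645 CPM in KO, highest in KO 5, and to 754 to 2066 CPM in WT. The part of blood RNA in the levels of KO 5 was not tested.

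**Figure D4:**
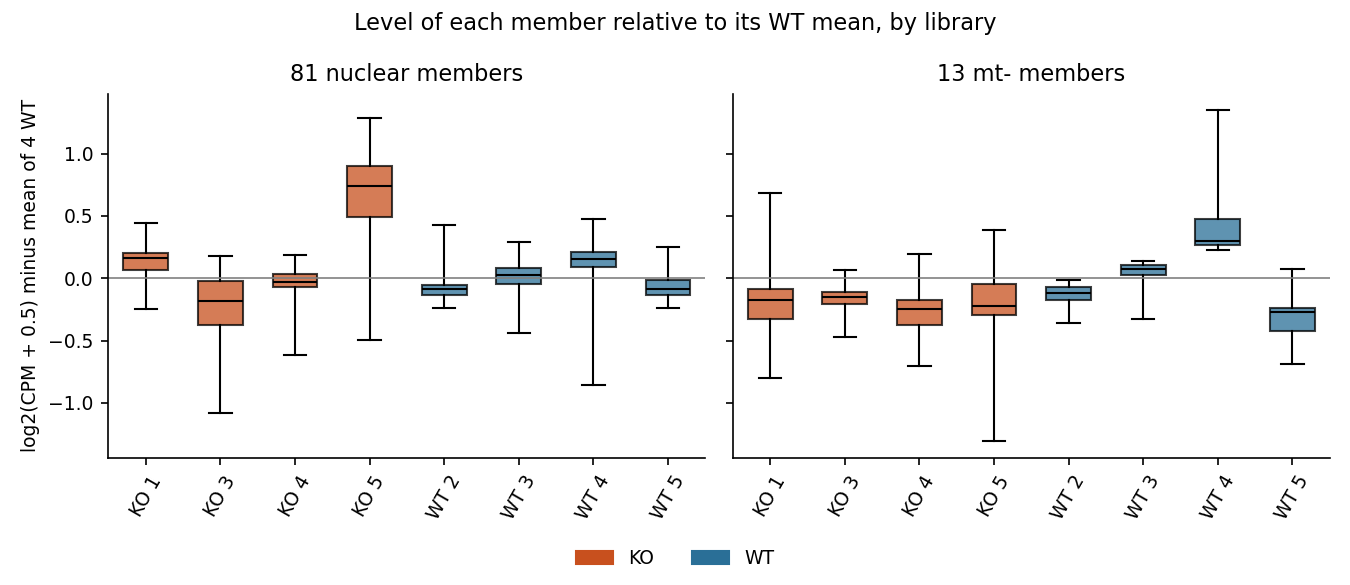
Level of each member relative to its own mean over the 4 WT libraries, as log2(CPM + 0.5), in KO libraries (orange) and WT libraries (blue); boxes hold the middle of the members with the median as a line, and whiskers reach the extremes. The nuclear median stands at 0.74 in KO 5 and between -0.19 and 0.16 in the other libraries, while the mitochondrial median is highest in WT 4 at 0.30.

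Among the mitochondrial genes, mt-Nd5, a proton-pumping subunit of complex I, had the smallest p. Its level was 2283, 3293, 2889 and 1604 CPM in KO 1, 3, 4 and 5, against 3507, 4046, 4515 and 3109 CPM in WT 2, 3, 4 and 5. KO 1, KO 4 and KO 5 lay below all WT libraries, and KO 3 lay above WT 5. The log2 fold change was -0.59 (SE 0.22), with an adjusted p of 0.25 by edgeR's quasi-likelihood test, and it was -0.30 without KO 1 and KO 5. mt-Nd5 (MT, 11742 to 13565) shares 14 bases with mt-Nd6 on the opposite strand, and the sources used here do not give the strand setting of the counts.

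The other complex I subunits of the mitochondrial genome differed less. mt-Nd1 had 2951, 3030, 2747 and 3053 CPM in KO and 2838, 3410, 3781 and 2612 CPM in WT, with a log2 fold change of -0.10 (SE 0.16). mt-Nd2 stood at -0.17 (SE 0.15), mt-Nd4 at -0.27 (SE 0.16), and mt-Nd6, which alone of the 13 is read from the minus strand in the annotation, at -0.29 (SE 0.16). In each of these 4 the KO libraries lay close together and inside or beside a wider WT range that WT 4 topped. mt-Nd4l, at 2.08 to 5.41 CPM in KO and 3.84 to 8.83 CPM in WT, stood at -0.65 (SE 0.31), and mt-Nd3, at 4.65 to 10.1 CPM in KO and 6.59 to 9.59 CPM in WT, at -0.24 (SE 0.25). Both rest on few reads and on copied sequence.

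mt-Cytb, the cytochrome b of complex III, had 5142, 5424, 5212 and 5057 CPM in KO and 5770, 5978, 6963 and 4995 CPM in WT. The log2 fold change was -0.19 (SE 0.15), and WT 5 lay below all KO libraries. mt-Co1, the catalytic subunit of complex IV and the most abundant member per length, had 9170, 10063, 9658 and 7022 CPM in KO and 10428, 11520, 12980 and 9137 CPM in WT. KO 5 was lowest, the other KO libraries lay between WT 5 and WT 2, and the log2 fold change was -0.30 (SE 0.18). mt-Co2 and mt-Atp6, subunits of complexes IV and V, stood at -0.0055 (SE 0.21) and -0.0020 (SE 0.18) on the log2 scale, and mt-Atp8 had 1.24 to 2.02 CPM in KO and 1.38 to 2.85 CPM in WT, at -0.29 (SE 0.29). mt-Co3 had 51.5, 22.9, 23.6 and 28.0 CPM in KO and 25.2, 25.4, 82.2 and 19.6 CPM in WT, at -0.28 (SE 0.42); KO 1 and WT 4 stood out, and without WT 4 the log2 fold change was 0.42.

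Ratios within the mitochondrial genome remove the total that a library gives to it. For each read of mt-Nd1 the KO libraries held 0.774, 1.09, 1.05 and 0.525 reads of mt-Nd5, against 1.24, 1.19, 1.19 and 1.19 in the WT libraries. All 4 KO values lay below the 4 WT values. KO 3 and KO 4 were close to WT, and KO 1 and KO 5 far below; the SD was 0.263 in KO and 0.023 in WT. mt-Nd4 over mt-Nd1 was 0.701, 0.630, 0.717 and 0.632 in KO against 0.758, 0.752, 0.761 and 0.721 in WT, and mt-Nd6 over mt-Nd1 was 0.251, 0.274, 0.270 and 0.255 in KO against 0.296, 0.301, 0.313 and 0.280 in WT. These 2 ratios did not overlap between the groups either, whereas those of mt-Nd2, mt-Co1 and mt-Cytb did. The result for mt-Nd4 and mt-Nd6 depended on mt-Nd1 as the denominator. In addition, 63.6% of the length of mt-Nd4 has a near-identical copy, where reads cannot be placed with certainty. As a share of the reads of the 7 abundant mitochondrial genes, only mt-Nd5 did not overlap, with means of 10.2% in KO and 12.9% in WT. By that share mt-Nd4 (8.15% in KO, 8.04% in WT), mt-Nd6 (3.2% in both) and mt-Nd1 (12.2% in KO, 10.8% in WT) overlapped. A ratio shows unequal change and not which of the genes moved. The ratios were chosen after their values were seen, so no test is given. KO 1 and KO 5 also had the most positive correlation of their deviations with gene GC content, at Spearman rho of 0.31 and 0.37 across genes. The values were -0.051 and 0.023 in KO 3 and KO 4 and -0.42 to -0.16 in the WT libraries. The most negative, -0.42, was that of WT 4, and every KO value lay above every WT value. mt-Nd5 and mt-Nd1 hold 37.1% and 37.6% GC and are 1824 and 957 bases long. The part of GC content and gene length in these ratios was not tested.

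**Figure D5:**
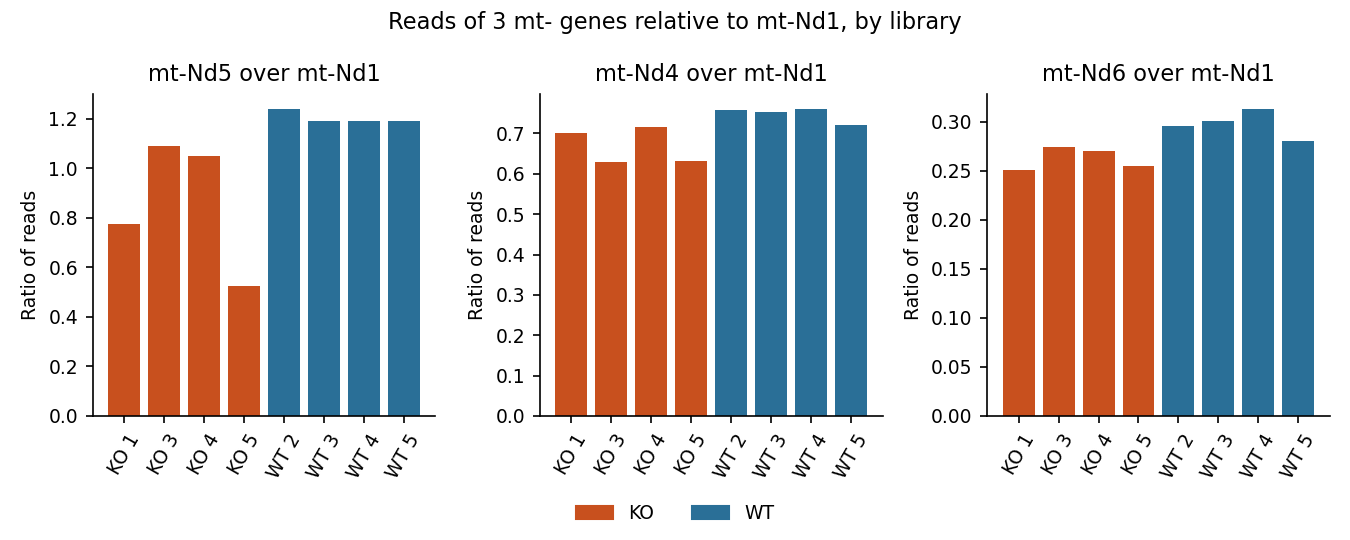
Reads of mt-Nd5, mt-Nd4 and mt-Nd6 for each read of mt-Nd1, by library, with KO libraries (orange) left of WT libraries (blue). In each panel the 4 KO bars are lower than the 4 WT bars; for mt-Nd5 the WT bars stand at 1.19 to 1.24 and the KO bars at 0.525 to 1.09.

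The nuclear subunits of complex I comprise core subunits, which carry the flavin and iron-sulfur clusters (the Ndufv1, Ndufv2 and most Ndufs genes), and accessory subunits that surround them. The median log2 fold change of the 7 core genes was 0.26, and that of the 28 accessory genes 0.20. Without KO 5 these medians were 0.043 and -0.072. Of the 35 genes, 33 had positive and 2 (Ndufs1 and Ndufb3) negative log2 fold changes, and 0 had an unadjusted p under 0.05, in a range of -0.097 to 0.49.
Ndufa11, an accessory subunit of the membrane arm, had the smallest p of the complex. It stood at 67.2, 60.2, 62.3 and 134 CPM in KO and 50.8, 62.6, 58.7 and 58.3 CPM in WT. KO 5 stood far above the other 7 libraries while KO 3 and KO 4 lay within the WT range; the log2 fold change was 0.49 (SE 0.23, adjusted p = 0.32 by edgeR) and 0.13 without KO 5. It overlaps Vmac, on the opposite strand, which had 26.5% as many reads. Ndufs8 and Ndufs7, core subunits with iron-sulfur clusters, each had 0.37 (SE 0.19 and 0.21), and 0.12 and 0.070 without KO 5. The highest nuclear levels of the complex per length belonged to Ndufa2 and Ndufa1, at 167 and 163 CPM per kb over all libraries.

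Over the 4 genes of complex II, the succinate dehydrogenase, the median was 0.084, the smallest of the nuclear complexes, and -0.0071 without KO 5. Sdha, the flavin subunit that oxidises succinate, had 239, 271, 274 and 269 CPM in KO and 229, 269, 294 and 251 CPM in WT. The groups ran side by side, with means of 263 ± 16.5 CPM in KO and 261 ± 27.7 CPM in WT (SD, n = 4 each). Sdhb, the iron-sulfur subunit, had 124, 112, 118 and 207 CPM in KO and 106, 120, 130 and 107 CPM in WT, where only KO 5 lay outside the WT range, at a log2 fold change of 0.28 (SE 0.18, adjusted p = 0.46 by edgeR). Sdhc and Sdhd, which anchor the enzyme in the membrane, had 0.095 (SE 0.12) and 0.073 (SE 0.12).

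Complex III had the highest nuclear median, 0.27 over 8 genes, all of them positive and all highest in KO 5; without KO 5 the median was -0.00073. Uqcrc1, a core protein of the complex (chromosome 9, 108936633 to 108949623), was the only member higher in KO at an unadjusted p of 0.05. Its values were 365, 304, 262 and 478 CPM in KO and 249, 268, 289 and 268 CPM in WT. KO 1, KO 3 and KO 5 lay above all WT libraries and KO 4 lay among them; the log2 fold change was 0.39 (SE 0.17), with an adjusted p of 0.30 by edgeR's quasi-likelihood test, and 0.21 without KO 5. Uqcrq, a small subunit that binds ubiquinone, had 195, 131, 174 and 398 CPM in KO and 154, 173, 173 and 154 CPM in WT. KO 3 was the lowest and KO 5 the highest of all libraries for this gene, at a log2 fold change of 0.46 (SE 0.27), which was 0.028 without KO 5. Uqcrfs1, the Rieske iron-sulfur protein, had 0.20 (SE 0.14), and the most abundant nuclear genes of the complex per length were Uqcr10 and Uqcr11, at 237 and 174 CPM per kb.

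In complex IV, cytochrome c oxidase, 16 of the 17 tested nuclear genes had positive log2 fold changes (median 0.21, and -0.018 without KO 5). Cox6a1, the most abundant nuclear member per length at 595 CPM per kb, had 409, 318, 395 and 833 CPM in KO and 339, 330, 367 and 350 CPM in WT. KO 5 held more than any other library, KO 1 and KO 4 lay a little above WT and KO 3 below it; the log2 fold change was 0.50 (SE 0.25, adjusted p = 0.35 by edgeR), the largest positive one of the members, and 0.11 without KO 5. Cox5a, a subunit of the matrix side, had 0.26 (SE 0.16) and 0.059 without KO 5. Cox8a followed Cox6a1 in level, at 460 CPM per kb.

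Several complex IV subunits exist as paralogs with different tissue ranges, and the molars used chiefly the common forms. Cox4i2, known as the lung form that responds to oxygen, made up 9.28%, 8.13%, 9.60% and 6.94% of Cox4i1 plus Cox4i2 per length in KO and 9.60%, 8.64%, 8.63% and 11.1% in WT. Cox6a2, the heart and muscle form, made up 2.46% to 3.70% of the Cox6a pair in KO and 2.75% to 4.09% in WT. Cox6b2, known from testis, made up 15.4% to 18.0% of the Cox6b pair in KO and 15.9% to 17.8% in WT, and Cox7a1, the heart and muscle form, 9.28% to 17.1% of Cox7a1 plus Cox7a2 in KO and 9.47% to 14.2% in WT. The 2 groups overlapped for each of these shares. Cox7a2l, counted here with complex IV by its name, stood at 186 to 283 CPM in KO and 170 to 205 CPM in WT, and Cox7b at 125 to 181 CPM in KO and 119 to 168 CPM in WT. Cox8b, the muscle form of Cox8, had at most 0.492 CPM in KO and 0.620 CPM in WT, and was not tested. Cox7b2 had 1 read in all 8 libraries and Cox8c had 0 reads.

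Ndufa4l2 was the member with the most negative nuclear log2 fold change. Its protein resembles NDUFA4, a subunit of complex IV, and the gene is known to be induced by low oxygen. It had 20.6, 11.3, 15.8 and 17.3 CPM in KO and 33.1, 28.8, 13.3 and 28.4 CPM in WT. WT 2, WT 3 and WT 5 lay above all KO libraries, and WT 4 lay among them. The log2 fold change was -0.67 (SE 0.25), with an adjusted p of 0.25 by edgeR's quasi-likelihood test, and it was -0.70 without KO 5 and -0.89 without WT 4. Ndufa4l2 (chromosome 10, 127514967 to 127517154) overlaps Shmt2 on the opposite strand by 32 bases, and Shmt2 had 194% as many reads, so part of its count is uncertain. Ndufa4 itself had 122, 107, 110 and 174 CPM in KO and 105, 103, 130 and 94.8 CPM in WT. The share of Ndufa4l2 in the pair, per length, was 17.6%, 11.8%, 15.3% and 11.2% in KO and 28.4%, 26.0%, 11.4% and 27.4% in WT, which overlapped through WT 4.

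In complex V, the median log2 fold change was 0.16 over 17 tested genes, 0.13 over the 5 genes of the catalytic F1 head and 0.19 over the other 12; without KO 5 these were -0.024, 0.0069 and -0.031. Atp5b and Atp5a1, the beta and alpha subunits of the head, had the highest CPM of the nuclear members. Atp5b had 1530, 1429, 1364 and 1781 CPM in KO and 1264, 1449, 1615 and 1407 CPM in WT, and Atp5a1 averaged 1047 ± 122 CPM in KO and 1003 ± 134 CPM in WT (SD, n = 4 each). For both genes the groups overlapped in part, with KO 5 above every WT library and WT 2 below every KO library. The c ring, which turns as protons pass, is built from 1 protein that 3 genes encode. Atp5g2 had 93.9, 80.9, 87.7 and 180 CPM in KO and 79.1, 77.1, 83.2 and 83.1 CPM in WT, where KO 3 lay below WT 4 and KO 5 far above all; its log2 fold change was 0.46 (SE 0.22, adjusted p = 0.33 by edgeR), and 0.12 without KO 5. Atp5g1 had 179 to 405 CPM in KO and 197 to 231 CPM in WT, and Atp5g3 had 207 to 381 CPM in KO and 230 to 262 CPM in WT. Atp5j2, a membrane subunit, and Atp5d, the delta subunit of the head, had 0.39 (SE 0.20) and 0.38 (SE 0.21), and 0.12 and 0.092 without KO 5. A second Ensembl entry named Atp5o had 0 reads.

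The medians of the 5 nuclear complexes ran from 0.084 for complex II to 0.27 for complex III, and without KO 5 between -0.064 and -0.00073. Differences between complexes were not tested. Nuclear complex I genes took 0.317% ± 0.0809 of the reads in KO and 0.290% ± 0.0169 in WT, and complex II genes 0.0636% ± 0.0059 in KO and 0.0617% ± 0.00431 in WT (SD, n = 4 each). Complex III genes took 0.150% ± 0.0410 in KO and 0.129% ± 0.00723 in WT, complex IV genes 0.291% ± 0.0856 in KO and 0.255% ± 0.0124 in WT, and complex V genes 0.517% ± 0.0959 in KO and 0.480% ± 0.0336 in WT. Every KO range contained or overlapped its WT range. On the mitochondrial side complex I genes took 0.994% ± 0.0858 of the reads in KO and 1.26% ± 0.184 in WT, and complex IV genes 0.891% ± 0.157 in KO and 1.12% ± 0.146 in WT, again with overlap. The complex IV share was nearly all mt-Co1, since mt-Co2 and mt-Co3 have identical copies and few counted reads.

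Promoter sequence was not used to choose the members, and some motifs were more frequent in the promoters of nuclear members than in those of all genes, with no test made. NRF1, GABP and YY1 are transcription factors known to act on respiratory chain genes. In windows of 300 bases, from 250 before to 50 after the RefSeq start (GRCm38.p6), the NRF1 core GCGCATGC was present on either strand in 15.6% of 64 nuclear members with a window, against 5.08% of 11124 tested protein-coding genes. The GABP motif CCGGAAG was in 23.4% of members and 17% of all, and the YY1 motif AAGATGGC in 12.5% and 4.34%. The motif of estrogen-related receptors, TCAAGGTCA, was in 2 of the 64 (3.12%) and in 0.252% of all genes, and CCAAT in 43.8% and 38.4%. The TATA box TATAAA was in 7.81% of members and 7.31% of all, so for TATAAA and CCAAT the shares lay near the background, and each of the NRF1, YY1 and estrogen-related receptor motifs was absent from most windows of members. These are counts of letters and not of binding, and the factors were not measured here. The windows of Cox6a1, the most abundant nuclear member per length, and of Sdhb, of the complex with no mitochondrial subunit, both hold an NRF1 core and a GABP motif, shown in capitals: chr5:115348909-115349208 on the minus strand for Cox6a1 and chr4:140961021-140961320 on the plus strand for Sdhb.
Cox6a1: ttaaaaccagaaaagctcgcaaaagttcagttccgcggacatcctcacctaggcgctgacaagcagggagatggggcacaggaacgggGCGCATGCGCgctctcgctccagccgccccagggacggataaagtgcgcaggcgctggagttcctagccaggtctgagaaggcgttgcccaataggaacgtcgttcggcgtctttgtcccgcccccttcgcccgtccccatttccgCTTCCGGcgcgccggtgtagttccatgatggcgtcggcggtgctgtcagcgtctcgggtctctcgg
Sdhb: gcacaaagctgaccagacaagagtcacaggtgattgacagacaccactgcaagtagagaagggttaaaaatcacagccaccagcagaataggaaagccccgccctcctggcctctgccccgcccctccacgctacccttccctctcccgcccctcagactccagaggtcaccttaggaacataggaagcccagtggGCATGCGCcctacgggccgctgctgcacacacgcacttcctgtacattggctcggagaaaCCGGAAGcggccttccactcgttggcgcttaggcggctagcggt

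Of the factors and processes that build the chain, 0 genes in the lists examined passed the adjusted threshold in edgeR. DESeq2 and limma voom called Creb1 and members of the hypoxia list, given with those lists below, and 0 of the others. Subunits whose names the rule misses (6 tested, 0 at an unadjusted p of 0.05) had 5 positive and 1 negative log2 fold changes, with a median of 0.14 that was -0.023 without KO 5, among them Cyc1, the cytochrome c1 of complex III, at 194 ± 39.3 CPM in KO and 159 ± 11.4 CPM in WT, and Ndufab1, the acyl carrier protein of complex I, at 63.4 ± 21 CPM in KO and 54.0 ± 3.86 CPM in WT (SD, n = 4 each). Assembly factors of complex I (18 tested) split into 12 positive and 6 negative, with a median of 0.066, which was -0.045 without KO 5. Dmac2 was at 0.28 (SE 0.12) and Tmem186 at -0.25 (SE 0.11), both at an unadjusted p under 0.05. At that threshold 8.70% of all genes were higher and 6.98% lower. Assembly factors of complexes II, III and V (14 tested, 0 at an unadjusted p of 0.05) split evenly at 7 and 7, with a median of -0.11 without KO 5, and with Sdhaf1 at 0.47 (SE 0.30) and Atpaf2 at 0.12 (SE 0.12). Those of complex IV (23 tested) had 15 positive and 8 negative and a median of 0.10, which was -0.059 without KO 5, with Higd2a at 0.36 (SE 0.16, unadjusted p = 0.048 by edgeR) and Cox19 at 0.21 (SE 0.11).

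Genes that read and translate mitochondrial DNA did not pass either. At an unadjusted p under 0.05, 8.70% of all genes were higher in KO and 6.98% lower. In the list of mitochondrial transcription and RNA processing (32 tested, 14 positive and 18 negative, with 3 past an unadjusted p of 0.05, 2 of them higher in KO), Fastk had 80.1, 68.9, 88.3 and 120 CPM in KO and 66.3, 67.5, 61.1 and 73.5 CPM in WT, and Fastkd1, of the same family of RNA-binding proteins, had 7.60, 11.0, 10.2 and 7.33 CPM in KO and 12.7, 11.6, 11.7 and 11.2 CPM in WT. Their log2 fold changes were 0.41 (SE 0.16, adjusted p = 0.25 by edgeR) and -0.39 (SE 0.16, adjusted p = 0.27). The 77 tested genes of the mitochondrial ribosome, 0 of them at an unadjusted p of 0.05, had values close to those of the nuclear members, with 72 positive, a median of 0.20, and a median of -0.0054 without KO 5. Mrpl4 and Mrpl37 had 0.33 (SE 0.15) and 0.26 (SE 0.13). Regulators of mitochondrial biogenesis (22 tested, 2 lower at an unadjusted p of 0.05, against 6.98% of all genes) had 10 positive and 12 negative values. Creb1, a cAMP-responsive transcription factor, had 59.9, 68.7, 71.7 and 53.3 CPM in KO and 87.3, 82.1, 87.8 and 80.6 CPM in WT, with each KO library below each WT library and a log2 fold change of -0.41 (SE 0.11, adjusted p = 0.15 by edgeR, 0.029 by DESeq2 and 0.034 by limma voom). Gabpb2, a partner subunit of GABP, had -0.39 (SE 0.15, adjusted p = 0.25 by edgeR), also without overlap. Among all genes, 5.44% had every KO library below every WT library, and DESeq2 and limma voom called 1.04% and 2.28% lower.

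The citric acid cycle list (19 tested, 0 at an unadjusted p of 0.05) had 15 positive and 4 negative log2 fold changes and a median of 0.064, which was 0.036 without KO 5, with Ogdh, of the oxoglutarate dehydrogenase complex, at 0.26 (SE 0.12) and Idh2 at 0.25 (SE 0.13). Import, fusion and outer membrane genes (25 tested, 1 lower at that threshold) had 18 positive and 7 negative and a median of 0.11, which was -0.059 without KO 5, with Dnm1l, the GTPase that divides mitochondria, at -0.32 (SE 0.13) and Phb2 at 0.30 (SE 0.15). The hypoxia response list stood at the other end: 18 of 20 were negative, with a median of -0.20 (-0.23 without KO 5), and 7 had an unadjusted p under 0.05, where 6.98% of all genes were lower at that threshold. Pdk1, the kinase that closes pyruvate dehydrogenase and so keeps pyruvate from the citric acid cycle, had 55.8, 48.2, 48.5 and 43.9 CPM in KO and 73.4, 73.9, 66.0 and 67.5 CPM in WT, without overlap, at -0.52 (SE 0.10). Its adjusted p was 0.085 by edgeR, 0.00075 by DESeq2 and 0.0053 by limma voom. Ero1l, an oxidase of the endoplasmic reticulum, had 28.2, 32.6, 30.1 and 24.0 CPM in KO and 40, 44.7, 40.6 and 40.5 CPM in WT, at -0.53 (SE 0.11), with an adjusted p of 0.10 by edgeR, 0.0030 by DESeq2 and 0.0073 by limma voom. DESeq2 called 3 and limma voom 8 of the 20 genes, all lower in KO, where DESeq2 called 1.04% and limma voom 2.28% of all genes lower. The summed level of oral keratinocyte markers was 605 to 895 CPM in KO and 773 to 1462 CPM in WT, with overlap, and 14 of 14 tested had negative log2 fold changes (median -1.18, and -1.43 without KO 5). Their part in the levels of the hypoxia list was not tested.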

How the data were processed

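The authors deposited 1 table of counts, whole numbers of reads per Ensembl gene and library, with gene lengths and coordinates. Per the labels' protocols, RNA was polyA-captured, then fragmented and reverse-transcribed. The submitters' processing notes name CASAVA and mm39; the table's starts equal those of GENCODE M21 on GRCm38 for 98.8% of shared genes, so GRCm38 coordinates are given. The sources used here give no aligner, counter or strand setting. Reads of overlapping genes cannot then be told apart: 44 tested members overlap another gene with reads, and for 17 that gene had over 10% as many reads.

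Genes were kept by filterByExpr (minimum count 10, minimum total 15; 16205 of 54532). KO was compared with WT on these deposited counts by edgeR 4.0.16 (R 4.3.3; TMM, robust quasi-likelihood test, two-sided, no covariate), with Benjamini-Hochberg adjustment over all genes and a threshold of 0.05. CPM are TMM-scaled; CPM per kb divides by the deposited length. Medians and counts over members are descriptions. On simulated counts with 100 genes changed by 1 on the log2 scale among 16205, the test called 87 in the right direction. Of 100 changed by 2 it called 100, and it made 11 false calls. On the deposited counts the same edgeR test did not call Wdr72, at a log2 fold change of -2.43 (adjusted p = 0.08). The log2 fold changes of members lay between -0.67 and 0.50, and changes smaller than 1 were not simulated. The simulated rates therefore do not show how often a change in a member would be called. Copies were found with blastn 2.17.0 (at least 99% identity over at least 100 bases).

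Named were Wdr72, every mt- gene, the 3 genes of smallest p and the 2 of highest CPM per kb in each nuclear complex, the tissue isoforms, and up to 2 genes of smallest p per companion list; other genes were named after their values were seen. The members, lists and rules were chosen with earlier results of these data known. Alternatives were DESeq2 1.42.0, limma voom with sample quality weights (3.58.1), other scalings and filters, 1 surrogate variable (sva 3.50.0), a replicate block, GC and length correction, left-out libraries, and, added after seeing the data, mitochondrial genes summed with their chromosome 1 copies.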

Additional observations from a re-analysis of the deposited data

Results flagged for a closer look

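Within each group of 4 libraries, a value was marked when its gap to the nearest library over the group's range exceeded Dixon's critical ratio for 4 values. Of 208 group values examined, 17 were marked. Chance marks about 1 in 20 of independent values. These values share libraries and reads, so that rate gives no expected count for them. KO 5 accounted for 8: Ndufa11 at 134 CPM, Sdhb at 207 CPM, Atp5g2 at 180 CPM, Cox7a2l at 283 CPM, Mrpl37 at 63.7 CPM, Idh2 at 164 CPM, mt-Co1 at 32.7% of the reads of the 7 abundant mitochondrial genes, and 1.62 reads of Gm10222 for each read of mt-Nd4l. KO 1 was marked for a low Sdha, at 239 CPM, and for 0.486 reads of Gm28437 for each read of mt-Co3. WT 4 was marked for mt-Co3 at 82.2 CPM, for Uqcrfs1 at 143 CPM, and for 0.453 reads of Gm28437 for each read of mt-Co3. Gm28437 is the identical copy of mt-Co3, and its ratio was 0.977 to 1.01 in the other KO libraries and 0.955 to 1.01 in the other WT libraries. WT 2 was marked for 5.77 reads of Gm10222 for each read of mt-Nd4l and for 1.24 reads of mt-Nd5 for each read of mt-Nd1, WT 3 for Ero1l at 44.7 CPM, and WT 5 for Cox4i2 at 28.5 CPM.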

How the results depend on the processing

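The count of members past the adjusted threshold was 0 under each of the 21 alternatives, and the smallest adjusted p of a member among them was 0.060, for mt-Nd5 under limma voom. The count of all genes called was 5, but 2 with library totals, 464 with DESeq2, 1065 with limma voom, 241 with no filter, 55 with 1 surrogate variable, 15 with GC and length correction, and 0 to 55 with 1 library left out (0 without KO 3, KO 4, WT 2 or WT 3, 3 without KO 1, 15 without WT 4, 55 without KO 5). The nuclear median of 0.20 was 0.12 with GC and length correction, -0.0065 with limma voom, -0.059 with 1 surrogate variable, -0.11 without KO 1 and KO 5, and -0.020 to 0.31 with 1 library left out, lowest without KO 5. The mitochondrial median of -0.27 was 0.0054 with GC and length correction and -0.36 to -0.10 with 1 library left out. The difference in mitochondrial read share ran from -0.752 to -0.435 percentage points with 1 library left out, and was -0.402 without KO 1 and KO 5. The cause of these shifts was not tested. Summing the mitochondrial genes with their copies left the share difference at -0.587.

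Replicate numbers 3, 4 and 5 occur in both groups. Their deviations correlated at -0.14, -0.09 and -0.12, within the -0.24 to 0.27 of pairs with unlike numbers. So few values cannot settle whether the numbers pair the samples, and the main test did not pair them. With the replicate block edgeR called 1 gene, Wdr72, at a log2 fold change of -3.42 (adjusted p = 0.037, against 0.080 without the block). Numbers 1 and 2 each occur in only 1 group, so KO 1 and WT 2 added nothing to the comparison within blocks. Without KO 1 and with no block, the log2 fold change of Wdr72 was -3.21 (adjusted p = 0.012 by edgeR). The part of pairing in this shift was not tested. With the block the nuclear median was 0.13 and the mitochondrial median -0.29. Of 1029 pairs of a named gene and an alternative, 38 turned the sign and 12 passed the threshold. With GC and length correction, log2 fold changes were 0.0054 for mt-Cytb, 0.11 for mt-Nd1, 0.043 for mt-Nd2, 0.21 for mt-Co2, 0.24 for mt-Atp6, 0.048 for mt-Nd3 and 0.019 for mt-Atp8. With no filter, mt-Co2 was at 0.0028 and mt-Atp6 at 0.0080. Under limma voom, mt-Atp6 was at 0.038, Sdhc at -0.0078, Sdhd at -0.0083 and Atpaf2 at -0.029. With 1 surrogate variable, mt-Atp6 was at 0.042, Sdhc at -0.024, Sdhd at -0.021, Uqcrq at -0.048 and Ndufab1 at -0.067. Without KO 1 and KO 5, Ndufs7 was at -0.029, Sdhb at -0.0076, Sdhc at -0.038, Sdhd at -0.029, Uqcrq at -0.10, Ndufab1 at -0.11, Sdhaf1 at -0.11 and Atpaf2 at -0.030. With 1 library left out, mt-Co3 ran from -0.62 to 0.42, mt-Co2 from -0.15 to 0.21, mt-Atp6 from -0.15 to 0.16, Sdhc from -0.016 to 0.14, Sdhd from -0.015 to 0.13 and Ndufab1 from -0.015 to 0.36. Depth limits mt-Nd3, mt-Nd4l and mt-Atp8, at 1204, 807 and 287 reads over the 8 libraries.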

Other observations

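Other tissues in the molars also varied between the groups. Of 14 tested markers of oral keratinocytes, 14 had negative log2 fold changes (median -1.18), and 2, Spink5 and Krt1, passed in edgeR, where 0.0185% of all genes were called lower. DESeq2 called 10 of the 14 lower and limma voom 12, against 1.04% and 2.28% of all genes; 12 were lower at an unadjusted p of 0.05, against 6.98%, and 7 had every KO library below every WT library, against 5.44%. Of 10 markers of dental mesenchyme, 9 were positive (median 0.50); edgeR called 0, with 7 higher at an unadjusted p under 0.05, against 8.70% of all genes, and DESeq2 and limma voom each called 5 higher, against 1.83% and 4.29%. Smpd3 was the only one of 9 odontoblast markers that edgeR called, higher in KO (DESeq2 called 2 and limma voom 4), at 67.0 ± 2.85 CPM in KO and 40.3 ± 3.78 CPM in WT (SD, n = 4 each). Macrophage, osteoclast, erythroid, endothelial, mural and muscle markers had medians of 0.41, 0.72, 0.61, 0.029, 0.057 and 0.15, neutrophil markers -0.11, the 11 ameloblast markers -0.082, and the only tested gene of the cardiac and brown fat list, Fabp4, 0.40. Without KO 5 the medians were 0.27 for macrophage, 0.47 for osteoclast, 0.16 for erythroid, 0.13 for mural, 0.065 for muscle and -0.21 for neutrophil markers, and without KO 1 and KO 5 the erythroid median was -0.12. Among these 8 lists and Fabp4, edgeR called 0 genes. DESeq2 called 2 macrophage markers higher, and limma voom 3 macrophage and 1 mural. Each also called 1 ameloblast marker higher and 1 lower, the latter Wdr72 itself. At an unadjusted p under 0.05 by edgeR, 8.70% of all genes were higher and 6.98% lower. Higher were 5 of 10 macrophage, 3 of 7 endothelial, 2 of 7 erythroid, 2 of 9 mural, 1 of 6 osteoclast and 1 of 11 ameloblast markers. Lower were 2 of 11 ameloblast markers, among them Wdr72, and 1 of 9 mural markers. The part of these tissues in the levels of respiratory chain genes was not tested.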
